A study of Rattus norvegicus with 21 samples.

Results

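CpG-poor highly methylated tiles are stretches of 250 bp in which few CpG dinucleotides were measured, at a high methylation level, in the dorsal striatum of the rat. A tile was taken as a member when it lay on chromosomes 1 to 20, had at least 2 CpGs with 10 or more reads in each of the 21 libraries, and had 2 to 7 different CpGs over all libraries together. The CpG number counts only CpGs that some library listed, so the sequence of a tile may hold more. Its mean level over the 6 unlesioned libraries also had to be 90% or above, and no adjacent tile could be under 10%. By this rule 24176 tiles were members, out of 140054 tiles measured in every library and 506527 seen in any. The members were thus chosen by their measured unlesioned levels, and their high level there is a description and not a result.

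Methylation of the cytosine in a CpG is the common state of mammalian DNA outside CpG islands, the dense clusters of CpGs that lie at many promoters and mostly stay unmethylated. Methylated cytosine is lost over evolutionary time by deamination to thymine, and methylated stretches of the genome are for that reason poor in CpGs. Bisulfite converts unmethylated cytosine to a base read as T and leaves methylated and hydroxymethylated cytosine as C, so a level here holds both forms, and hydroxymethylated cytosine is abundant in the brain.

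The animals were wild type Sprague Dawley rats 120 days old. Unlesioned saline (6 samples) had no dopamine lesion. Lesioned saline (8 samples) and lesioned L-DOPA (7 samples) carried a lesion of the left medial forebrain bundle made with 6-OHDA, a toxin of catecholamine neurons, followed by 3 weeks of recovery. The L-DOPA group then received 6 mg/kg daily for 7 days, and striatum was dissected 3 h after the last dose. The lesion removes dopamine axons that reach the striatum, and the repeated dosing was meant to bring on dyskinesia, the involuntary movements that L-DOPA can cause. The labels do not say which animal each sample came from, nor what the unlesioned tissue was, so the p-values given here speak only of sample-to-sample spread, which may be technical. The tissue was dissected whole, so a shift in the mix of cell types and a change within one cell type cannot be told apart. The genome build of the files is rn5, and no rn5 sequence or gene annotation was used here, so tiles are given by position only.

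Total coverage was 5.96e+07 to 1.64e+08 reads per library, summed over cytosines. Library numbers fall into 2 runs, here series 1 (lesioned saline 1 to 6 and L-DOPA 1 to 3) and series 2 (all others, with all 6 unlesioned libraries). In L-DOPA replicates 3 and 7 and unlesioned replicate 1, reads were concentrated on CpG-dense tiles: tiles of 15 or more CpGs had 22.1 to 24.1 times the reads of tiles of 3 or fewer, against 10.6 to 18.005 times in the other 18 libraries. The difference in mean level is given below with and without these 3 libraries, and falls in single libraries with and without the 3 that hold most of them.

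Tiles of 2 to 7 CpGs had 2 common states in the unlesioned libraries. Of 104545 such tiles, 17.9% had a level under 10% and 23.1% had a level of 90% or above, while each step of 10 points between 10% and 60% held 4.82% to 5.57% of them. The members are the upper state, and the step below it, from 80% to 90%, held another 16.5%. The rule on adjacent tiles removed only 3 tiles. It could rarely act: 17417 members had no measured adjacent tile, 6457 had 1 and 302 had both, and an adjacent tile without a value counted as not under 10%. The 7061 adjacent tiles that were measured had a median level of 92.7%, and 65.6% of them were themselves at 90% or above.

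**Figure D1:**
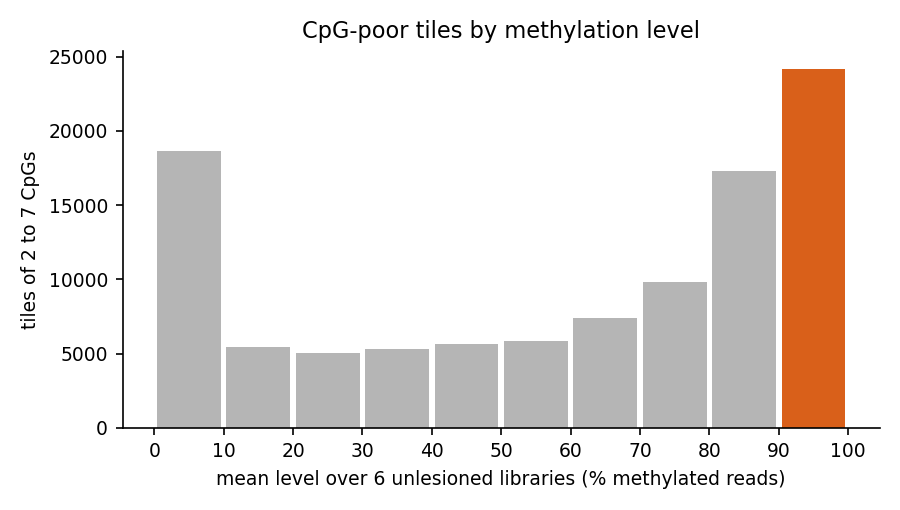
Number of tiles with 2 to 7 CpGs (y axis) by mean level over the 6 unlesioned libraries (x axis, percent of reads methylated, steps of 10 points). The 24179 tiles of the top step, in orange, give the 24176 members once 3 with an adjacent tile under 10% are removed. The lowest step holds 18667 tiles.

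Members with few CpGs were the most numerous. There were 7796 members with 2 CpGs, 6354 with 3, 4384 with 4, 2851 with 5, 1750 with 6 and 1041 with 7. The share of all measured tiles that were members fell with CpG number, from 25.2% of tiles with 2 CpGs to 15.98% of tiles with 7. In the lesioned saline libraries the mean level was 93.9% at 2 CpGs and 93.8% at 7. All members were chosen at a high unlesioned level, so the closeness of these means is not a result about CpG number. Depth was higher with more CpGs, since reads were summed over them, with a median of 122 reads per library at 2 CpGs and 412 at 7. The spread of a member over the 15 lesioned libraries had a median SD of 3.18 points at 2 CpGs and 2.15 points at 7.

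Members lay on all 20 chromosomes. Chromosome 10 had the lowest share of its CpG-poor tiles among the members, 18.96%, and chromosome 15 the highest, 26.7%. No member was found beside 20038 of them, but 17417 members had no measured adjacent tile and could not show one. Among the rest, 1915 runs held 2 adjacent members, 84 held 3 and 14 held 4. These counts thus depend on which tiles were measured. The median distance from a member to the nearest tile under 10% was 42250 bp, with 34500 bp for CpG-poor tiles of level 50% to 90% and 26875 bp for the 1662 tiles of 8 or more CpGs at 90% or above. Within 2000 bp of such an unmethylated tile lay 2.20% of the members, 4.46% of the CpG-poor tiles of level 50% to 90% and 3.31% of the CpG-dense methylated tiles. The lesioned saline mean was 93.8% for the 428 members less than 2000 bp away and 93.9% for the 11023 members 50000 bp or more away. All members were chosen at a high unlesioned level, so the closeness of these 2 means is not a result about distance.

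The 3 runs of 4 members that come first in genome order show what an extended methylated stretch looked like. In the run at chr2:209068251-209069250 the 4 tiles had lesioned saline means of 97.4%, 98.9%, 97.8% and 94.8%. All 21 libraries stayed at or above 90.3% in each of these tiles. At chr4:236271251-236272250 the first 3 tiles stayed at 90.5% or above in every library, and the last one, with 36 to 131 reads per library, ranged from 80.3% to 98.8%. The run at chr5:140350251-140351250 opened with a tile that ranged from 79.9997% to 98.7% on 56 to 245 reads. Neighbouring members thus differed in spread. In the runs on chromosomes 4 and 5 the widest range was in the tile with the fewest reads. The run on chromosome 2 went the other way. Its widest range, 90.3% to 96.8%, was in the tile with the most reads, 367 to 1158. Its tile with the fewest, 23 to 91, ranged from 95.9% to 100%.

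Among members with 100 or more reads in every library, the 4 with the highest lowest library were at or close to complete methylation. A tile of 3 CpGs at chr19:59323751-59324000 was at 100% in all 21 libraries on 132 to 870 reads, and so was a tile of 3 CpGs at chr1:252548501-252548750 on 126 to 327 reads. Another such tile of 3 CpGs, at chr14:74969251-74969500, had group means of 99.92% unlesioned, 99.96% lesioned saline and 99.95% L-DOPA on 1508 to 5305 reads. At chr1:68795001-68795250 a tile of 2 CpGs had means of 99.94%, 99.98% and 100%, in the same order. These 4 were named for their steadiness, so their lack of spread is not a result. In these 4 tiles almost no read showed T in any library.

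The rule has a threshold at 90%, and the tiles on both sides of it are described here. The lowest members were chr20:12562501-12562750, chr18:6023501-6023750 and chr3:166128751-166129000, each at 90.0% in the unlesioned mean. Their lesioned saline means were 89.4% ± 5.67, 90.7% ± 2.67 and 90.7% ± 2.52 (SD, n = 8), and their L-DOPA means 89.1% ± 2.36, 89.2% ± 2.81 and 92.1% ± 4.21 (SD, n = 7). The highest tiles outside were chr2:113330001-113330250, chr7:11481001-11481250 and chr6:34184001-34184250, with unlesioned means of 89.9999%, 89.9997% and 89.9996%. Their lesioned saline means were 90.3% ± 3.76, 87.8% ± 8.22 and 87.3% ± 2.80 (SD, n = 8), and their L-DOPA means 82.8% ± 7.62, 88.45% ± 5.30 and 89.6% ± 3.74 (SD, n = 7). Between 90% and 92% lay 5408 members, and 867 were at 98% or above.

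Single CpGs inside the members were mostly as methylated as the tile. The members held 84232 CpGs, of which 69556 were listed in all 21 libraries. In the lesioned saline libraries 84.4% of these had a mean of 90% or above, 10805 were from 50% to 90% and 18 were under 50%, of which 3 were under 10%. Within a member, the highest and the lowest CpG differed by a median of 4.27 points. A difference over 20 points occurred in 346 of the 23800 members with 2 or more such CpGs, or 1.45%.

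The high level held in the lesioned groups, which the rule did not use. The mean member level per library was 93.4% to 94.1% in lesioned saline with a median of 93.9%, and 92.3% to 94.2% in L-DOPA with a median of 93.9%. In the unlesioned libraries it was 92.9% to 94.5% with a median of 94.3%. L-DOPA replicates 3 and 7, at 92.5% and 92.3%, were the lowest of the 21, and unlesioned replicate 1, at 92.9%, was next. Those are the 3 libraries with reads concentrated on dense tiles, and what part this plays in their low mean was not tested. Group means were 94.1% ± 0.599 (SD, n = 6) unlesioned, 93.9% ± 0.238 (SD, n = 8) lesioned saline and 93.6% ± 0.808 (SD, n = 7) L-DOPA. Choosing tiles by a high unlesioned level lowers every other group relative to it, so no comparison with the unlesioned group was tested.

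**Figure D2:**
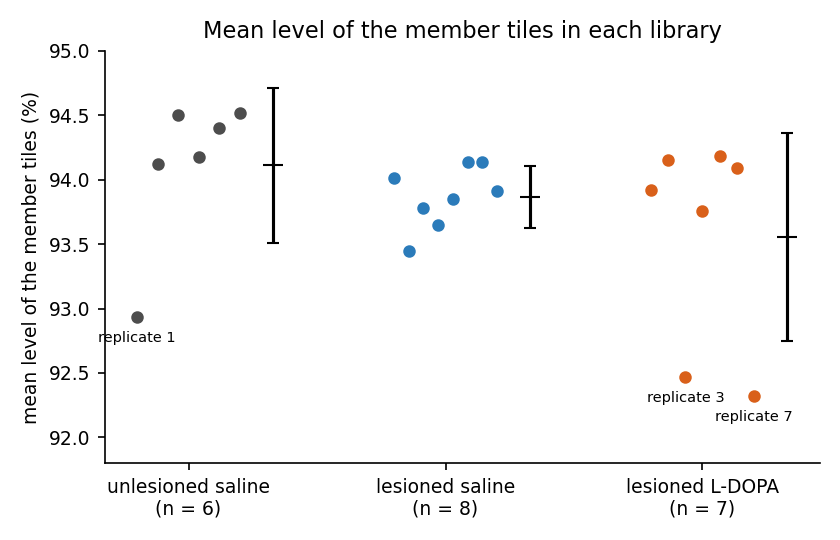
Mean level of the 24176 member tiles (y axis, percent of reads methylated, axis not from 0) in each of the 21 libraries by group; points are libraries and bars are group mean ± SD. L-DOPA replicates 3 and 7 and unlesioned replicate 1 are below 93%, and all other libraries are above 93.4%.

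Between the 2 lesioned groups the mean level differed by less than the spread of libraries. L-DOPA minus lesioned saline was -0.310 points with a standard error of 0.317. Without the 3 libraries of concentrated reads the difference was 0.154 points, in the opposite direction. Tile by tile, the median difference was -0.203 points over members and -0.213 points over all tiles measured in every library, and 56.0% of members and 58.6% of all such tiles were lower under L-DOPA. Without L-DOPA replicates 3 and 7 the medians were 0.146 and 0.167 points, and 45.5% and 43.3% were lower. The direction of the shift thus turned with those libraries, in members and in all tiles alike.

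Most members kept a mean of 90% or above after lesion and drug. The lesioned saline mean was 90% or above in 22139 members, or 91.6%, and the L-DOPA mean in 21255, or 87.9%; both were in 20512, or 84.8%, and neither in 1294. The lowest lesioned saline mean of a member was 74.3% and the lowest L-DOPA mean 66.7%. Asked of single libraries, 7295 members (30.2%) were at 90% or above in all 21, and 15913 (65.8%) were at 85% or above in all 21. The SD over the 15 lesioned libraries had a median of 2.74 points in members, 6.49 in CpG-poor tiles of level 50% to 90% and 1.83 in the CpG-dense methylated tiles, whose median depth was 548 reads against 193 in members.

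Whether L-DOPA changed any member was tested tile by tile against lesioned saline, with a quasi-binomial model of methylated and unmethylated reads. The model was fitted to 181761 tiles, 24171 of them members; the other 5 members were at 100% throughout. No tile passed an adjusted p of 0.05, a background of 0%, and the smallest adjusted p of a member was 1. At an unadjusted p under 0.05, 508 members were lower and 331 higher under L-DOPA, which is 2.1% and 1.37% of members, 3.47% together. The shares over all tiles were 2.34% and 1.53%, 3.87% together, so the members were close to the background. The limma test on log2 odds also called none. At an unadjusted p under 0.05 it had 1165 members, or 4.82% of them, against 4.04% of all tiles. By that test the members were above the background, where by the quasi-binomial model they were slightly below it.

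The members with the smallest p are given as values that did not pass. The tile at chr7:51248501-51248750, of 3 CpGs, had 76.3% to 87.2% in lesioned saline with a median of 81.4%, and 50.9% to 89.7% in L-DOPA with a median of 67.9%. In 6 of 7 L-DOPA libraries it was below every lesioned saline library, and L-DOPA replicate 5 was above them all. In the unlesioned libraries the same tile ran from 82.5% to 100% with a median of 91.1%. Its difference was -15.6 points, with an adjusted p of 1 in the quasi-binomial model.

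The other members of smallest p on the lower side differed by less. At chr3:161545001-161545250, a tile of 4 CpGs, lesioned saline ran from 93.2% to 99.3% with a median of 96.7% and L-DOPA from 83.0% to 94.7% with a median of 90.0%. The tile of 5 CpGs at chr19:60067251-60067500, on 284 to 1426 reads, ran from 91.97% to 96.0% in lesioned saline and from 87.5% to 93.6% in L-DOPA. Both tiles overlapped between the groups, with differences of -7.39 and -3.42 points. At chr6:64247001-64247250 and chr1:48667001-48667250 the differences were -7.38 and -6.35 points, again with overlap. In the latter the lesioned saline libraries spread little, from 94.6% to 97.6%, and the 7 L-DOPA libraries ran from 84.8% to 95.3%.

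On the higher side, 3 of the 5 members had L-DOPA means of 98.9% to 99.7%. At chr4:225132501-225132750, of 2 CpGs, lesioned saline ran from 86.3% to 97.48% with a median of 92.2% and L-DOPA from 97.4% to 100% with a median of 99.4%. At chr7:60937751-60938000, of 3 CpGs, lesioned saline ran from 88.1% to 100% with a median of 92.4%, and 6 of 7 L-DOPA libraries were at 100% with the remaining one at 98.0%. Differences were 7.33 and 6.66 points, on 40 to 231 and 34 to 97 reads per library. The other higher tiles of smallest p were chr8:74260001-74260250 (3.404 points), chr7:96604001-96604250 (2.39 points) and chr1:219042001-219042250 (5.03 points), with L-DOPA means of 96.8%, 98.9% and 92.9%. All 10 tiles kept their direction under all alternatives in which they were measured, with adjusted p from 0.947 to 1. They were picked by p in these same libraries, so the kept direction adds no support.

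Groups without overlap were rare among members and among all tiles. All L-DOPA libraries were below all lesioned saline libraries in 1 member, 0.00414% of members against 0.01% of all tiles measured in every library. This was chr1:271076001-271076250, with 80.6% to 87.7% in L-DOPA and 88.3% to 95.02% in lesioned saline. All L-DOPA libraries were above all lesioned saline libraries in 2 members, 0.00827% against 0.00857%. One was chr7:35488001-35488250, with 90.9% to 95.8% in L-DOPA and 84.9% to 90.1% in lesioned saline. The other was the tile on chromosome 8 named above, whose lowest L-DOPA library, at 95.13%, was just above the highest lesioned saline library, at 95.09%.

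Single libraries nevertheless had members far below the rest. Of the 24176 members, 1282 (5.30%) were under 75% in at least 1 library, and in 1080 of these it was exactly 1. Requiring in addition that the other 20 libraries be at 85% or above left 301 members, called here single-library falls, or 1.25% of members. Over all tiles measured in every library the same pattern occurred in 389, or 0.278%, but most of those tiles could not show it because their level is not that high. Among the 1662 CpG-dense methylated tiles, which can show it, there were 15, or 0.903%, of which 10 were in L-DOPA replicate 7 and 5 in L-DOPA replicate 3. In the low library the median level of a single-library fall was 71.9%, where the next lowest library had a median of 87.3%. The falls were partial: 13 were under 60%, none was under 50%, and the lowest was 50.0%.

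Most of the single-library falls were in 3 libraries. L-DOPA replicate 7 had 156 of the 301, unlesioned replicate 4 had 52 and L-DOPA replicate 3 had 40, together 248 or 82.4%. Lesioned saline replicates 2 and 8 followed with 10 and 9, and lesioned saline replicates 3 and 4 and unlesioned replicate 1 had 5 each. The other libraries had 0 to 3 each, and lesioned saline replicate 7 and unlesioned replicates 3 and 6 had 0. Membership itself limits falls in the unlesioned libraries, since a low value there pulls the mean under 90%. The CpG-poor tiles of level 50% to 90%, which are not members, showed the same pattern in 70 tiles. Of these, 54 were in unlesioned replicate 4, 3 in L-DOPA replicate 3 and 0 in L-DOPA replicate 7. This class takes in tiles that a low unlesioned value brought under 90%, so its split by library also follows in part from the rule. The counts by library thus hold for members only, and the 52 of unlesioned replicate 4 cannot be ranked against the lesioned libraries. With the 3 libraries removed, 111 members were single-library falls over the remaining 18 libraries. The L-DOPA falls were thus mostly in 2 of 7 samples, and the other 5 L-DOPA libraries had 2 or 3 each.

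**Figure D3:**
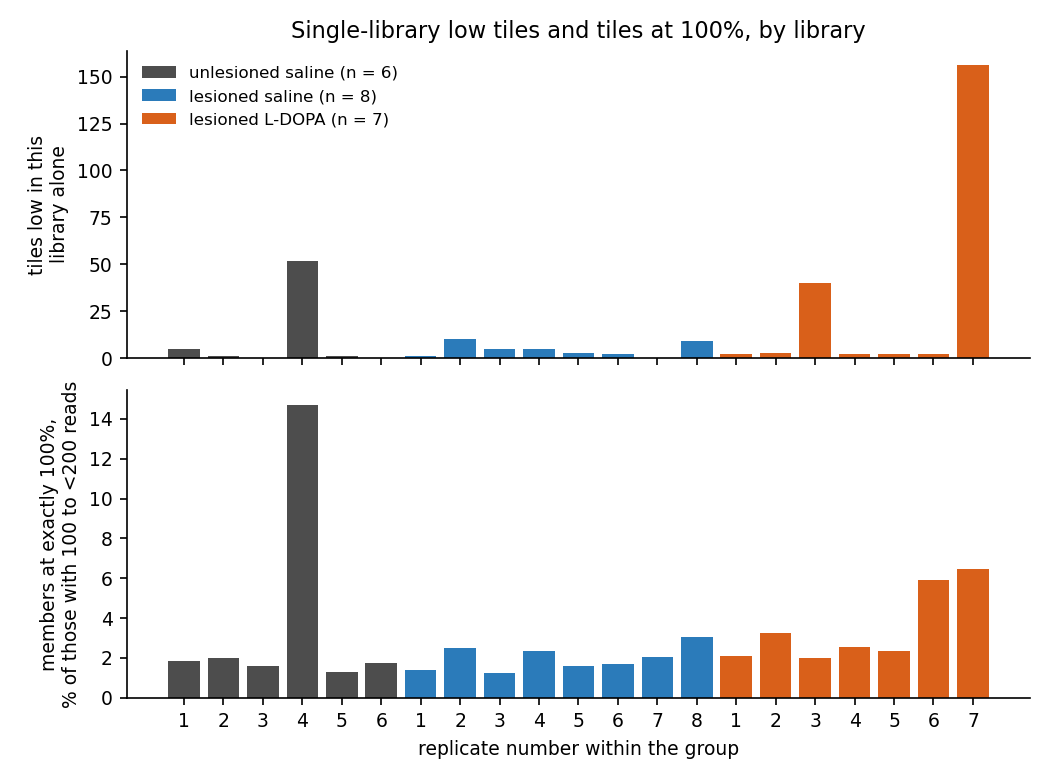
Upper panel, number of member tiles under 75% in that library alone with all other libraries at 85% or above; lower panel, members at exactly 100% as a percent of members with 100 to under 200 reads; x axis, replicate number within the group, 1 bar a library. L-DOPA replicate 7 has 156 falls, and unlesioned replicate 4 has 52 falls and 14.7% of tiles at 100%.

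Shallow coverage went along with the falls. In the low library the median depth was 58 reads per tile, where the median over the other libraries was 138.5, and in 274 of 301 the low library had fewer reads than that. It had less than 50% of them in 172. Members whose least covered library had 20 to under 50 reads were under 75% in some library in 11.6% of cases, and this share was 4.64% at 50 to under 100 reads, 1.59% at 100 to under 200, 0.545% at 200 to under 400 and 0.443% at 400 or more. Not all falls were shallow: 62 had 100 or more reads in the low library, 53 of them in the 3 libraries named, and 8 had 200 or more. The exact 95% binomial interval of the low value lay wholly under 85% in 230 of 301. That interval covers counting error only, and neighbouring CpGs are often read by the same molecule, so it is too narrow.

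The same 3 libraries had the highest shares of low values and the widest deviations among members with 100 to under 200 reads. At that depth 1.72% of members were under 75% in L-DOPA replicate 7, 0.822% in L-DOPA replicate 3 and 0.274% in unlesioned replicate 4, against 0% to 0.220% in the other 18 libraries. At 20 to under 50 reads the shares were 7.11%, 4.25% and 1.58% in the same order, against 0% to 0.687% in the other 5 unlesioned libraries and up to 2.61% in the lesioned libraries outside the 3. The deviation of a tile from the median of the other libraries had an SD of 5.40 points in L-DOPA replicate 7, 4.95 in unlesioned replicate 4 and 4.34 in L-DOPA replicate 3, against 2.71 to 3.84 points in the others. Unlesioned replicate 4 and L-DOPA replicate 7 departed upwards as well as downwards. Tiles at exactly 100% made up 14.7% of members at that depth in unlesioned replicate 4, 6.46% in L-DOPA replicate 7, 5.91% in L-DOPA replicate 6 and 1.24% to 3.24% in the other libraries. In CpG-poor tiles of level 50% to 90% at the same depth, the SD was 11.5, 10.2 and 10.1 points in L-DOPA replicate 7, unlesioned replicate 4 and L-DOPA replicate 3. It was 5.87 to 8.99 points in the other 18 libraries, highest in unlesioned replicate 1.

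The ratio of reads on dense to poor tiles was 24.0 in L-DOPA replicate 7, with 156 falls, and 22.1 in L-DOPA replicate 3, with 40. It was highest in unlesioned replicate 1, at 24.1 with 5 falls, and lowest in unlesioned replicate 4, at 10.6 with 52, both of them libraries that the rule used. What part depth or read concentration plays in the falls was not tested.

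**Figure D4:**
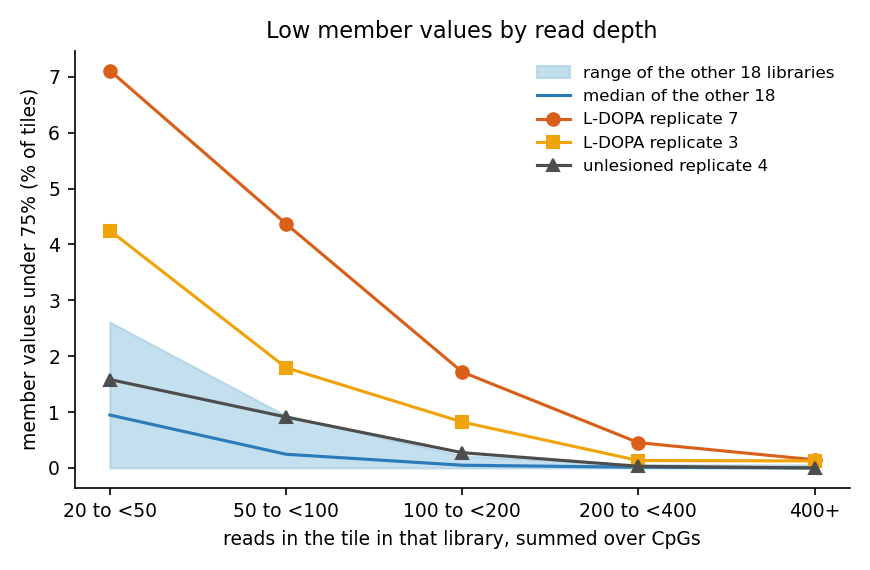
Share of member values under 75% (y axis, percent of members in that depth class) by the reads of the tile in that library (x axis, 5 classes). Lines with markers are L-DOPA replicate 7, L-DOPA replicate 3 and unlesioned replicate 4, and the band and plain line are the range and median of the other 18 libraries; at 100 to under 200 reads the first of these is at 1.72% and the band ends at 0.220%.

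The falls differed in how many CpGs of the tile were low. A CpG was counted as low where it was 30 points or more under its median in the other libraries. By that measure 166 of the 301 falls had 1 low CpG, 87 had none, 48 had 2 or more, and in 11 every listed CpG was low. All 11 were in L-DOPA replicate 7, L-DOPA replicate 3 or unlesioned replicate 4. A drop of less than 30 points is not counted, so a fall with 1 low CpG may have dropped at its other CpGs too. In 169 falls the low library listed only 2 CpGs. A CpG that no other library listed could not be counted as low. The 268 low CpGs had a median level of 54.5% on a median of 19 reads, and 133 were from 40% to 60%, against 8 under 10%. Whether the DNA sequence of the samples differed at these CpGs was not tested. In 7 falls the low library listed a CpG that no other library had, and at the CpGs listed in all 21 libraries 252 of 295 falls were still under 75%, 33 were from 75% to 85% and 10 were at 85% or above. Few falls had an adjacent member: of 35 such neighbours none was under 75% in the same library, and the lowest was at 83.1%. For falls without an adjacent member the next tile is not described here.

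The falls with the widest gap on 50 or more reads show these forms. At chr2:66621501-66621750, unlesioned replicate 4 was at 58.8% (exact 95% interval 44.2% to 72.4%, 51 reads) and the other 20 libraries were from 92.9% to 100%. Both CpGs, at positions 66621550 and 66621560, were low there, at 53.8% and 64.0%, each with a median of 100% elsewhere. The whole of the measured tile was thus low in that library.

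At chr7:34757001-34757250, L-DOPA replicate 7 was at 54.9% (40.3% to 68.9%, 51 reads) and the others from 85.5% to 100%. Of its 3 CpGs the one at position 34757161 was at 16.7% on 18 reads where the others had a median of 94.9%, and the outer ones were at 73.3% and 77.8%. Most of that fall lay at 1 CpG. At chr20:8008501-8008750, L-DOPA replicate 3 was at 57.4% (44.1% to 69.96%, 61 reads) with the others from 87.9% to 100%. There 2 CpGs, 12 bases apart at positions 8008638 and 8008650, were at 38.1% and 47.6%, and a further one 4 bases on was at 89.5%.

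Which CpGs a library listed mattered in some falls. At chr4:236039501-236039750, unlesioned replicate 4 was at 61.0% (49.6% to 71.6%, 82 reads) against 91.3% to 100% elsewhere. It listed 3 CpGs that no other library had, at 20.0%, 20.0% and 33.3%, and over the 3 CpGs shared by all libraries it was at 84.0%. At chr12:39227251-39227500, L-DOPA replicate 7 was at 58.6% (44.9% to 71.4%, 58 reads) against 89.1% to 98.0%, and at 70.2% over the 2 CpGs listed everywhere. Its lowest CpG, at 9.09%, had 11 reads.

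The deepest of the named falls was outside the 3 libraries. At chr1:53607251-53607500, L-DOPA replicate 1 was at 68.8% (64.4% to 72.9%, 477 reads), and the others were from 86.9% to 94.8% on a median of 457 reads. The CpG at position 53607291 was at 45.2% on 210 reads where the others had a median of 90.4%, while the CpG at 53607254 was at 89.2% on 240 reads. The remaining CpG, at 53607403, was at 70.4% on 27 reads where the others had a median of 91.2%. The 2 well covered CpGs of this tile thus differed widely within a single library. At chr6:113636001-113636250, lesioned saline replicate 4 was at 61.2% (52.4% to 69.5%, 134 reads) against 85.5% to 100%, and its CpGs at 113636041 and 113636050 were at 53.7% and 68.7%.

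The remaining named falls were between 67.6% and 72.6%. L-DOPA replicate 3 was at 67.6% at chr1:98555251-98555500. L-DOPA replicate 2 was at 69.0% at chr7:88815501-88815750 and at 72.6% at chr11:77250751-77251000. Lesioned saline replicate 2 was at 70.4% at chr3:17602751-17603000, a tile of 4 CpGs, and the 3 that it listed were from 66.7% to 72.7%. Lesioned saline replicate 8 was at 68.6% at chr17:43929501-43929750 and at 77.3% over the CpGs listed in all libraries. In these 5 tiles the next lowest library was from 85.7% to 91.3%, and each low value rested on 51 to 98 reads.

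**Figure D5:**
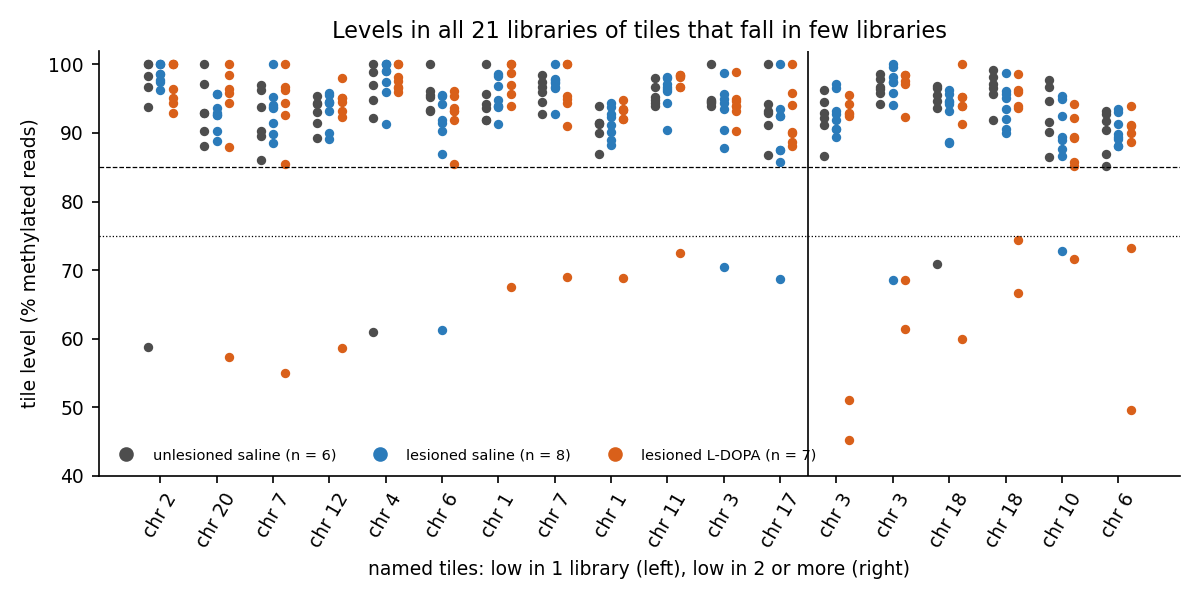
Level of 18 named member tiles (y axis, percent of reads methylated, axis from 40) in all 21 libraries, 1 point a library; x axis, tiles by chromosome, with 12 single-library falls left of the line and 6 tiles low in 2 or more libraries right of it; dotted and dashed lines mark 75% and 85%. Points under the dotted line are the low libraries, 1 each on the left, down to 54.9%, and 2 or 3 each on the right, down to 45.1%.

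A further 25 members were under 75% in 2 to 4 libraries with all the others at 85% or above. They were low in 2 libraries in 18 tiles, in 3 in 5 tiles and in 4 in 2 tiles. The pair of L-DOPA replicates 3 and 7 alone accounted for 7 of the 25. The clearest was chr3:49630001-49630250, of 7 CpGs, at 51.0% (40.8% to 61.1%, 100 reads) and 45.1% (37.6% to 52.8%, 175 reads) in those libraries and at 86.7% to 97.2% in the other 19. All 7 CpGs were low in L-DOPA replicate 3 and 6 of 7 in L-DOPA replicate 7. In the other 5 L-DOPA libraries the tile was from 92.4% to 95.6%.

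In chr3:128692501-128692750, of 2 CpGs, the low libraries were of both lesioned groups and of neither of those replicates. L-DOPA replicate 4 was at 61.4% on 202 reads, L-DOPA replicate 1 at 68.5% on 419 reads and lesioned saline replicate 4 at 68.5% on 235 reads, and the other 18 libraries were from 92.3% to 100%. In all 3 libraries 1 CpG was low, at 36.1%, 45.4% and 48.5%, and the other was at 95.05% to 97.6%. The same tile thus had an intermediate share of reads with C at 1 of its 2 CpGs in 3 libraries. Whether the DNA sequence differed there was not tested.

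Of the other tiles of this kind, chr18:24492501-24492750 was at 60% in L-DOPA replicate 3 and at 70.9% in unlesioned replicate 1. At chr18:16272751-16273000, L-DOPA replicates 7 and 3 were at 66.7% and 74.4%, and at chr6:139262751-139263000 they were at 49.6% and 73.2%. At chr10:110280501-110280750, L-DOPA replicate 7 was at 71.6% and lesioned saline replicate 2 at 72.7%. The first of these values turned to 90.7% over the CpGs listed in all libraries, since 2 of the CpGs it listed were seen in no other library.

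Below these levels few members were found in any library. A library under 60% occurred in 118 members, under 50% in 28, under 40% in 7, under 30% in 4 and under 20% in none. The 4 members under 30%, named after their values were seen, were low on few reads or in a tile that varied in other libraries too. L-DOPA replicate 7 was at 24.0% on 25 reads at chr3:62313501-62313750, at 25% on 20 reads at chr10:59373501-59373750 and at 27.7% on 101 reads at chr8:74857001-74857250. The last of these was also at 60.7% in lesioned saline replicate 2 and 72.2% in unlesioned replicate 1, and it had the largest SD over the 21 libraries of any member, 16.4 points. L-DOPA replicate 3 was at 20.8% on 24 reads at chr4:6681001-6681250, where unlesioned replicate 1 was next lowest at 80.5%. All 4 of these lowest values were in the 2 L-DOPA libraries that held most of the lesioned single-library falls.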

How the data were processed

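Bisulfite-treated genomic DNA of 21 dorsal striatum samples was read from one end, per the labels' protocols. Mapping with Bismark 0.13.0 to rn5, trimming with Trim Galore 0.3.7 and use of methylKit 0.9.2 are stated in the submitters' processing notes. The deposited files give, per cytosine, the coverage as a count of reads (10 or more) and the percent of them that read C, as the authors computed it. The product was a whole number for 100% of cytosines.

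Both strands of a CpG were joined and reads summed in tiles of 250 bp. A read counts at each CpG it covers, and PCR copies may remain, so counting intervals are too narrow. L-DOPA was compared with lesioned saline by a quasi-binomial logistic model over all 3 groups, for tiles measured in at least 5 libraries of each group, with dispersions moderated by limma 3.58.1 (R 4.3.3) and kept at 1 or above, and Benjamini-Hochberg adjustment over all tiles at 0.05. The alternative was limma on log2 odds (0.5 added to each count), computed from the deposited counts. Scripts were tested on simulated data in which only tiles of intermediate level were changed, and only upwards. That test does not show how well a change in a member would be found.

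Named tiles were the 5 of smallest p per direction, the 12 single-library falls of widest gap (50 or more reads, at most 2 per library), 6 tiles low in several libraries, the 4 with the highest lowest library (100 or more reads in every library), the 3 on each side of 90% and the 3 longest runs. Rules for falls with every one of 3 or more CpGs low and for falls shared by adjacent tiles found no tile. The members, thresholds and rules were chosen with earlier results of these data known.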

Additional observations from a re-analysis of the deposited data

Results flagged for a closer look

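In 10 cases a library or tile value lay apart from their group by Dixon's test at 95%, out of 48 sets examined. Chance alone would give about 2.4 if the sets were independent. They share the same libraries, and the rule used the unlesioned ones. The tiles were picked by p, so no excess over chance can be read from the 10. Groups of 6 to 8 libraries were examined for 6 quantities per library and for the 10 tiles of smallest p, and tiles chosen for a low library were not.

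Mean member level was 92.9% in unlesioned replicate 1, with the next unlesioned library at 94.1%. The share of members under 75% was 0.5005% in lesioned saline replicate 2, with the next of its group at 0.240%. Members at exactly 100% made up 16.2% in unlesioned replicate 4 (next 4.21%) and 11.3% in L-DOPA replicate 7 (next 5.16%). The SD from the other libraries at 100 to under 200 reads was 4.95 points in unlesioned replicate 4, with the next at 3.499 points. Single-library falls numbered 52 in unlesioned replicate 4 (next 5) and 156 in L-DOPA replicate 7 (next 40).

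Among the tiles of smallest p, L-DOPA replicate 5 was at 97.4% at chr4:225132501-225132750, where the nearest L-DOPA library was at 99.2%. L-DOPA replicate 3 was at 98.0% at chr7:60937751-60938000, where the other 6 were at 100%. Unlesioned replicate 6 was at 100% at chr7:96604001-96604250, where the nearest was at 98.3%.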

How the results depend on the processing

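The number of members was 24176. It became 9132 at a level of 95% or above, 302 with both adjacent tiles measured and 15384 with at least 20 reads per cytosine, of which 14993 were among the 24176; it was 23728 to 25585 on leaving out each unlesioned library. Of the members, 22137 were also found with the level taken from lesioned saline.

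Single-library falls numbered 301. They became 13 with the low library under 60%, 0 with it under 50%, 724 with the others at 80% or above, 60 with the others at 90% or above, 182 with at least 50 reads in the low library and 101 with at least 20 reads per cytosine. Alternatives chosen after seeing the data gave 1080 with the others not under 75%, 344 from unweighted means of CpG levels, 297 over CpGs listed in all 21 libraries, 193 to 339 on leaving out each library (193 without L-DOPA replicate 7) and 111 without L-DOPA replicates 3 and 7 and unlesioned replicate 4.

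No member was called by L-DOPA under any alternative run. The fit within series 1 called 1 tile, which is not a member, and that within series 2 called 0. With the replicate number as a block in the quasi-binomial model 0 tiles were called, and the smallest adjusted p of a member was 0.989. Same-numbered lesioned samples correlated at -0.179 to 0.210, over 0.1 in 3 of 7 pairs. The labels do not say whether samples are paired by number, and these correlations cannot settle it. The difference in mean member level was -0.415 to -0.105 points on leaving out each library, -0.299 within series 1 and -0.438 within series 2; its sign turned only without the 3 libraries of concentrated reads, at 0.154 points. A low value on 20 to under 50 reads carries a wide counting error.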
